A study of Mus musculus with 13 samples.

Results

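Keratins are the intermediate filament proteins of epithelial cells. They form obligate heteropolymers of a type II and a type I chain, and the chain that a cell makes marks its layer and state. In stratified epithelia and in the basal layer of the mammary gland the type II keratin Krt5 pairs with the type I keratin Krt14. Wounded or hyperproliferative epidermis adds the type II keratins Krt6a and Krt6b with the type I keratins Krt16 and Krt17. Krt15 is a type I keratin of basal cells and of the hair follicle bulge, and Krt75 is a type II keratin of the hair follicle companion layer. Simple epithelia, among them the luminal cells of the mammary gland, use Krt8 and Krt7 (type II) with Krt18 and Krt19 (type I). The 8 genes described here are these 4 type II keratins (Krt5, Krt6a, Krt6b, Krt75) and 4 type I keratins (Krt14, Krt15, Krt16, Krt17), selected by gene symbol from 23845 genes. All 8 were found, and all 8 had enough reads to be tested.

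The data were RNA-seq profiles of 13 primary mammary tumour lines of mouse strain FVBN/J, and the study's title concerns blockade of the JNK pathway in HER2-driven tumours. The JNK (c-Jun N-terminal) kinases are the products of Mapk8, Mapk9 and Mapk10. In the labels 7 lines were JNK knockout and 6 lines were wild type (WT), and they are numbered here within each group. All 13 had been started on collagen I in low serum and then kept in fetal bovine serum with EGF and insulin. The labels do not say which JNK alleles were used, which promoter or Cre drove the deletion, or which transgene gave rise to the tumours, and give no age. WT lines 4 and 5 have a number in common in their titles, and whether they are from 1 animal is not said, so p-values measure only the spread among these lines. The titles of the 2 groups begin with different letters, so a difference of colony or handling cannot be told apart from genotype.

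The total expected count ranged over the lines from 38298602 to 46689809, and 12593 to 13432 genes per line had at least 10. Mapk8 was at 0.85 to 2.45 TPM (transcript abundance scaled for length to a common sum in each line) in the JNK knockout lines and at 7.72 to 11.9 TPM in the WT lines. Mapk9 was at 2.16 to 8.48 TPM in the JNK knockout lines and at 20.5 to 29 TPM in the WT lines, and Mapk10 was at most 0.04 TPM in any line. The epithelial label was checked with Epcam, which was at 33.4 to 530 TPM in the JNK knockout lines and at 496 to 1262 TPM in the WT lines. JNK knockout line 2 held the lowest Epcam, and its values are given beside the results that rest on it. Summed marker levels of leukocytes were 0.03 to 1.24 TPM in JNK knockout and 0.2 to 3.09 TPM in WT lines, and those of endothelial cells were 0.03 to 0.34 TPM in JNK knockout and 0.03 to 0.11 TPM in WT lines. Those of adipocytes were 0.13 to 3.27 TPM in JNK knockout and 0 to 3.44 TPM in WT lines. In such bulk RNA, more cells of a type and more RNA per cell cannot be told apart.

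The genes lie in 2 clusters, all on the minus strand of GRCm38. On chromosome 15, Krt75 (101563343 to 101573904), Krt6b (101676023 to 101680293), Krt6a (101689928 to 101694305) and Krt5 (101707069 to 101712905) follow each other with no other keratin gene between them, and each has 9 exons. On chromosome 11, Krt15 (100131759 to 100135949) is followed by Krt14 (100203162 to 100207510), Krt16 (100246091 to 100248902) and Krt17 (100256215 to 100261029), each with 8 exons. Krt6a and Krt6b, only 9.63 kb apart, are the members hardest to tell apart by sequence. Their coding sequences are 97.8% identical, with 37 mismatches over 1659 aligned bases. The stretch below, coding bases 817 to 876 in exon 4, shows where they differ most densely. It holds 10 mismatches in 60 bases, and capitals mark the bases at which the 2 genes differ. The sequences are those of the GENCODE transcripts on GRCm38 (Krt6a at chr15:101692484-101692543 and Krt6b at chr15:101678303-101678362, minus strand), written 5′ to 3′ along the transcript.
Krt6a: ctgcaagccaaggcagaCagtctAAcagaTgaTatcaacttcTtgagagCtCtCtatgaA
Krt6b: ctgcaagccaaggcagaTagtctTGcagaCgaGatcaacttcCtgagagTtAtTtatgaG
With reads of 150 bases, 18.7% of the 150-base windows of the Krt6a transcript also occur in another gene (Krt6b or Gm5478), and 18.8% of those of Krt6b occur in Krt6a. The corresponding share was 18.4% for Krt16, all in the gene Gm11597, which was not analysed here, and 0 for Krt5, Krt14, Krt15, Krt17 and Krt75. Values of Krt6a and Krt6b therefore depend in part on how reads were shared between copies. All deposited expected counts of Krt16 were whole numbers. Among the other members, coding identity was 79.5% between Krt5 and Krt6a, 76.2% between Krt5 and Krt75, 86.2% between Krt14 and Krt16 and 82.0% between Krt14 and Krt17.

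Krt5 and Krt75 stand at the 2 ends of the type II run and had the highest and the lowest median TPM of its members in the JNK knockout lines. Their upstream sequences are shown for that contrast, as the 250 bases before the RefSeq start (GRCm38.p6, minus strand, 5′ to 3′). A RefSeq promoter entry was matched for 3 of the 8 members. That of Krt14 starts inside the gene and is not shown. Capitals mark matches to ATAAA and to the GC box GGGCGG on either strand.
Krt5 (chr15:101712906-101713155): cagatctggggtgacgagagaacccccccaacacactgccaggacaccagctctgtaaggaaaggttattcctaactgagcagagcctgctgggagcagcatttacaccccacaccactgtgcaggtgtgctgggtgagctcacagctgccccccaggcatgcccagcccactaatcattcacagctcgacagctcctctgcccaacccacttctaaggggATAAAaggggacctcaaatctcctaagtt
Krt75 (chr15:101573905-101574154): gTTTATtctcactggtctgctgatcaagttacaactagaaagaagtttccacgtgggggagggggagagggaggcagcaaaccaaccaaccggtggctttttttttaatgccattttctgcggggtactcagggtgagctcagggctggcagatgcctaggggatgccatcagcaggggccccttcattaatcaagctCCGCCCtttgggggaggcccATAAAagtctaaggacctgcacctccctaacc
Counted back from the start, ATAAA lies at -29 to -25 in Krt5 and at -32 to -28 in Krt75, and Krt75 also holds it on the other strand at -249 to -245 and a GC box on the other strand at -52 to -47. Of the same 250-base windows before 32851 RefSeq starts, 37.3% hold ATAAA and 32.7% hold GGGCGG. The AP-1 motif TGANTCA (in 6.75% of those windows), the AP-2 motif GCCNNNGGC (13.7%) and TATAAA (12.4%) were searched on both strands and did not occur in these 2 stretches.

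**Figure D1:**
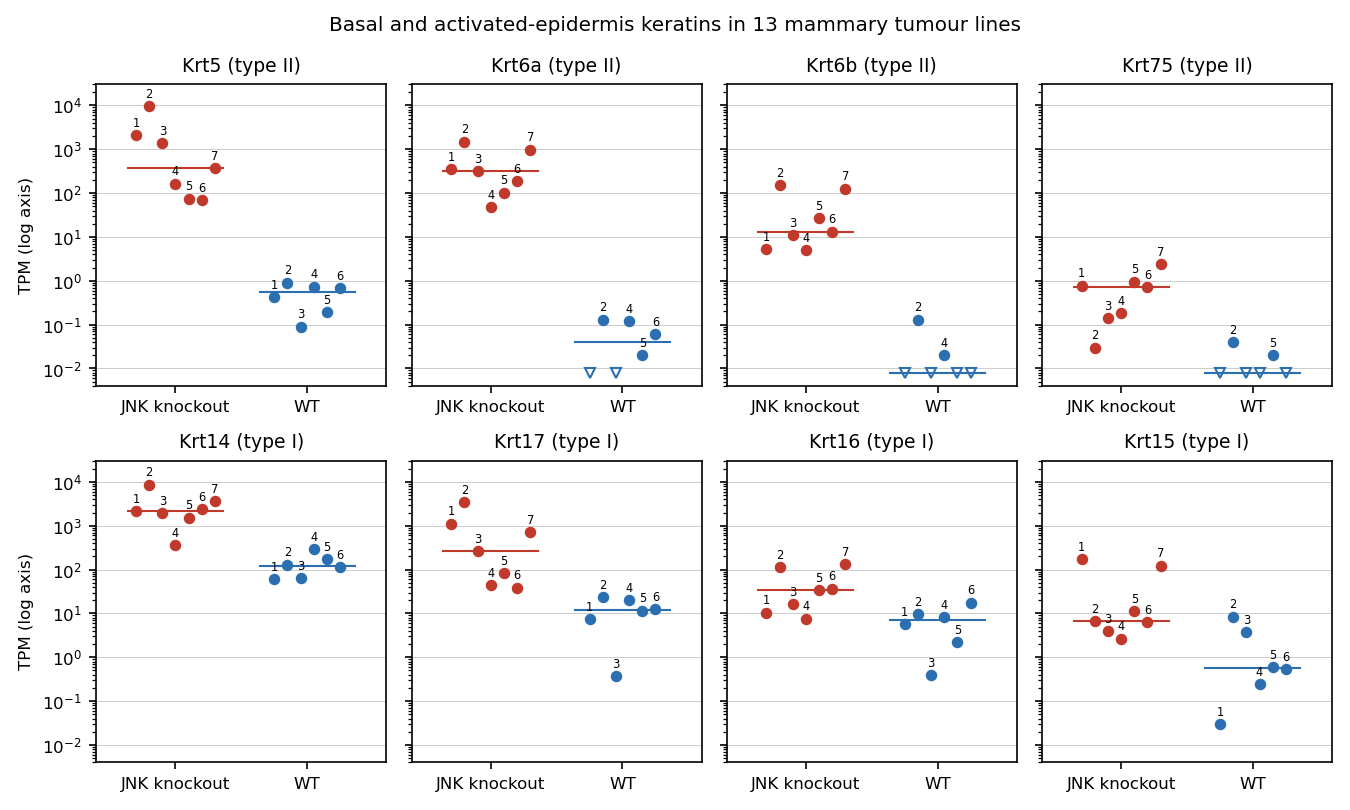
TPM (log axis) of the 8 keratins in each JNK knockout line (left in each panel) and each WT line (right); points carry the line number, horizontal bars are group medians, and open triangles at the base are lines at 0 TPM. The JNK knockout lines lie above every WT line for Krt5, Krt14, Krt17, Krt6a and Krt6b, and the groups overlap for Krt15, Krt16 and Krt75.

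The basal and activated-epidermis keratins were higher in the JNK knockout lines than in the WT lines. The 8 were chosen with earlier results of these data known, so their counts are not independent evidence. Krt6a, Krt6b and Krt75 had 16, 8 and 5 reads in all WT lines together. They passed the filter on low counts only through the JNK knockout lines, so they could enter the test only by being higher there. Krt5 (147 reads in all WT lines, 4 to 43 per line) and Krt15 (483 reads, 1 to 302 per line) also needed JNK knockout lines to pass. A high level there eased their entry, so their fold changes and ranks are not free of this selection either. In edgeR's quasi-likelihood test 7 of the 8 rose (adjusted p under 0.05, adjusted over all 13058 genes tested) and none fell, where 4.33% of all genes tested were called higher and 4.17% lower. With DESeq2, which called 8.7% of all genes higher and 7.52% lower, all 8 rose and none fell. With limma-voom, which called 3.39% of all genes higher, 3 rose (Krt14, Krt6a and Krt75). None of the 8 was lower at an unadjusted p under 0.05 in edgeR either. The exception in edgeR, Krt15, was also higher in the fit but missed the threshold. The median log2 fold change (JNK knockout over WT throughout) was 6.21 over the 8 genes and 0.01 over all genes tested. For 5 of the 8 every JNK knockout line was above every WT line in TPM, a pattern held by 0.934% of all genes tested. Krt6a, Krt5 and Krt6b had the 3 highest log2 fold changes of all genes tested, in that order. Each of the 8 had a positive fold change in every one of the 192 combinations of member and alternative setting that gave an adjusted p. These are refits of the same lines, and a gene near 0 in the WT lines could hardly come out otherwise. The count is therefore no added evidence.

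The type II partner of the basal layer, Krt5, was below 1 TPM in every WT line and well expressed in every JNK knockout line. Its level was 69.9 TPM in the lowest JNK knockout line, 365 TPM in the median and 9482 TPM in the highest, against 0.09, 0.55 and 0.91 TPM in the WT lines. The groups did not overlap, and the lowest JNK knockout line held 76.8 times the Krt5 of the highest WT line. Within the JNK knockout group the highest line exceeded the lowest 136-fold. JNK knockout line 2 alone supplied 69.7% of the sum over the 7 lines, and there Krt5 ranked second among all genes by TPM. Its log2 fold change was 12.11 (SE 1.65, edgeR adjusted p = 0.0020). It was 10.58 (adjusted p = 0.00082) without JNK knockout line 2. With limma-voom it was 10.53 and missed the threshold (adjusted p = 0.053).

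Krt6a, an inducible keratin of wounded epidermis, had the clearest separation of the 8. Krt6a was at 48.4 TPM in the lowest JNK knockout line, 312 TPM in the median and 1492 TPM in the highest, against 0, 0.04 and 0.13 TPM in the WT lines. The lowest JNK knockout line was 372 times above the highest WT line. All 6 WT lines together held 16 reads, so the size of the fold is imprecise. The log2 fold change was 13.34 (SE 1.21, edgeR adjusted p = 0.00016), and 12.76 (adjusted p = 0.00012) without JNK knockout line 2. The call held under every alternative run.

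Krt6b, the near copy of Krt6a, was lower than Krt6a in every JNK knockout line. It was at 4.91, 13.1 and 151 TPM in the lowest, median and highest JNK knockout line, against 0, 0 and 0.13 TPM in the WT lines. The JNK knockout lines held 18999 reads and the WT lines 8, so the size of the fitted fold rests on the prior count of the fit. It was 11.11 on the log2 scale (SE 1.44, adjusted p = 0.0014), 10.51 without JNK knockout line 2 (adjusted p = 0.0013) and 13.09 without WT line 2 (adjusted p = 0.0020). With limma-voom it was 10.38 and missed the threshold (adjusted p = 0.056). On log2(TPM + 1), which understates the change of a gene near 0 in WT lines, the differences were 4.49 for Krt6b, 8.09 for Krt6a and 8.43 for Krt5, and on log2(TPM + 0.1) they were 7.49, 10.93 and 9.94. All 3 passed on both scales. In WT line 2, RSEM gave Krt6a and Krt6b the same expected count of 6.5. The ratio of Krt6a to Krt6b in TPM differed among JNK knockout lines, with 68.6 in line 1, 28.4 in line 3, 14.5 in line 6 and 9.89 in line 2. It was 9.85 in line 4, 7.74 in line 7 and 3.79 in line 5, so the 2 copies did not keep 1 fixed proportion. When their counts were summed into 1 gene, the call held.

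Krt75 was the rarest of the 8. It was at 0.03, 0.72 and 2.36 TPM in the lowest, median and highest JNK knockout line, against 0, 0 and 0.04 TPM in the WT lines. The JNK knockout lines 1 to 7 held 62, 2, 11, 13, 100, 62 and 216 reads, and the 6 WT lines 5 reads in total. JNK knockout line 2, the line richest in Krt5, had 2 reads of Krt75, and it was the only JNK knockout line within the WT range. In the fit the log2 fold change was 6.17 (SE 1.22, edgeR adjusted p = 0.010), and 7.05 without WT line 2 (adjusted p = 0.013). With 1 line left out, the filter on low counts kept Krt75 in 7 of 13 fits, those without JNK knockout line 2 or a WT line. It was called in all 7. Without any other JNK knockout line it was not tested, so the dependence of the call on lines such as line 7 is not known. On log2(TPM + 1), a scale that understates the change of low genes, the difference was 0.67 and missed the threshold (adjusted p = 0.079).

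Among the type I members Krt14, the partner of Krt5, differed from it in being well expressed in both groups. It was at 357, 2131 and 8728 TPM in the lowest, median and highest JNK knockout line, against 60.8, 122 and 288 TPM in the WT lines. The groups did not overlap, but the lowest JNK knockout line (line 4) was only 1.24 times above the highest WT line (line 4). The log2 fold change was 4.65 (SE 0.68, edgeR adjusted p = 0.0026), and between 4.09 and 4.99 with any 1 line left out. The call held under every alternative run.

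Krt17, which is induced with Krt6 and Krt16 in wounded skin and is also a keratin of basal and appendage epithelium, followed the same split. It was at 38.4, 264 and 3437 TPM in the lowest, median and highest JNK knockout line, against 0.37, 12.0 and 23.2 TPM in the WT lines. The groups did not overlap, and the lowest JNK knockout line was 1.66 times above the highest WT line. JNK knockout line 2 gave 60.3% of the JNK knockout sum. The log2 fold change was 6.26 (SE 1.29, edgeR adjusted p = 0.012), 5.14 (adjusted p = 0.013) without JNK knockout line 2, and 5.29 with limma-voom, where it missed the threshold (adjusted p = 0.060).

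Krt16, the usual type I partner of Krt6a, had the smallest fold of the 7 that rose. It was at 7.55, 33.6 and 131 TPM in the lowest, median and highest JNK knockout line, against 0.39, 6.94 and 17.7 TPM in the WT lines. The groups overlapped, with 4 of 7 JNK knockout lines above every WT line. This gave a log2 fold change of 3.01 (SE 0.88, edgeR adjusted p = 0.049). This call was marginal. It held in 2 of 13 fits with 1 line left out (3.20 without JNK knockout line 4, adjusted p = 0.039, and 3.53 without WT line 6, adjusted p = 0.046), and over all 13 the adjusted p ranged from 0.039 to 0.095.

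Krt15 did not pass the test. It was at 2.67, 6.77 and 170 TPM in the lowest, median and highest JNK knockout line, against 0.03, 0.56 and 8.38 TPM in the WT lines. Only JNK knockout lines 1 (170 TPM), 7 (123 TPM) and 5 (11.2 TPM) were above every WT line, and line 1 gave 52.5% of the JNK knockout sum. The log2 fold change was 4.56 (SE 1.41, edgeR adjusted p = 0.061). Without WT line 2, which held the highest WT level, it was 5.65 and passed (adjusted p = 0.046), and without JNK knockout line 1 it was 3.75 (adjusted p = 0.12). JNK knockout line 2, highest for Krt5, Krt14, Krt17, Krt6a and Krt6b, had 6.77 TPM of Krt15, within the WT range.

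**Figure D2:**
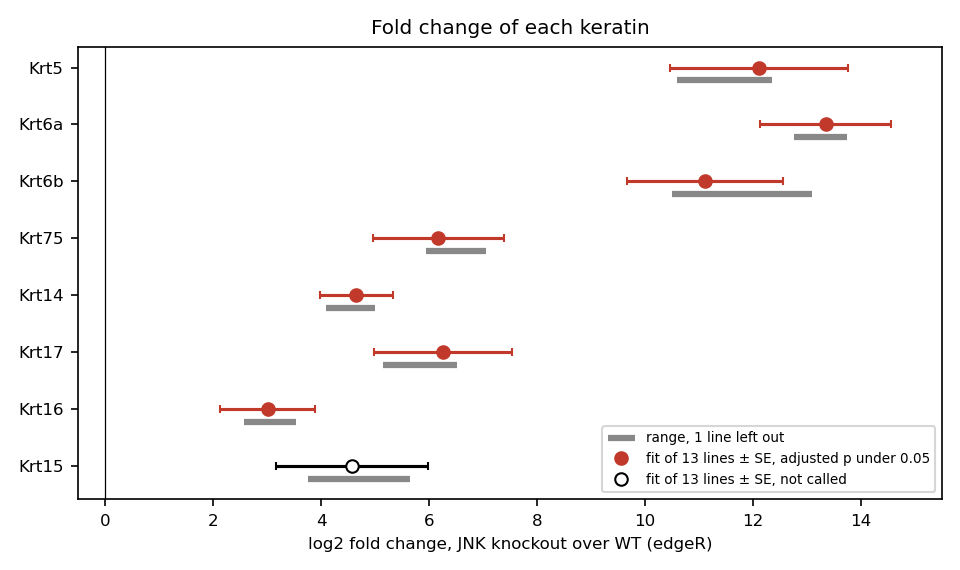
Log2 fold change of each keratin, JNK knockout over WT, from the fit of all 13 lines (points with SE bars; the open point is the gene not called), with the range over fits that each left out 1 line as a grey bar. Krt6a (13.34), Krt5 (12.11) and Krt6b (11.11) stand furthest right, and Krt16 (3.01) furthest left.

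Since keratins polymerise as type II with type I chains, the balance of the 2 types was compared line by line. TPM is scaled by length and so allows levels of different genes to be set side by side. The ratio of Krt14 to Krt5 in TPM was near 1 in JNK knockout lines 2 (0.920), 1 (1.03) and 3 (1.39) and 2.17 in line 4. It was 9.88 in line 7, 20.2 in line 5 and 33.7 in line 6, in which Krt14 was in excess. In the WT lines Krt14 exceeded Krt5 by 143 to 900 times. The log2 ratio averaged 2.03 ± 2.16 in JNK knockout lines (SD, n = 7) and 8.27 ± 1.19 in WT lines (SD, n = 6), a difference of -6.24. In a two-sided exact permutation test over 1716 splits of the lines p was 0.0012, where the smallest p the design allows is 0.00058. The ratio is made of the Krt5 and Krt14 levels already tested. With Krt5 near 0 in the WT lines its direction was set beforehand, so this p is not separate evidence. With 1 TPM added to both genes the difference was -4.32 (exact permutation p = 0.0017); Krt5 was below 1 TPM in every WT line. The lower ratio held in 7 of 7 JNK knockout lines, with no overlap between the groups.

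**Figure D3:**
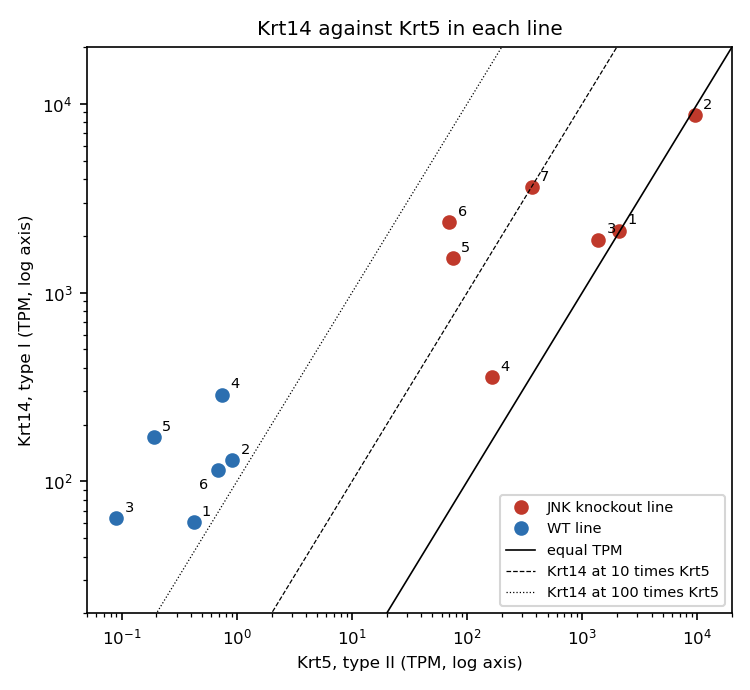
Krt14 (type I) against Krt5 (type II) in TPM on log axes, 1 point per line with its number; the solid line marks equal TPM and the broken lines mark Krt14 at 10 and 100 times Krt5. JNK knockout lines 1 to 4 lie near equality, lines 5 to 7 lie near or above the line for 10 times, and all WT lines lie above the line for 100 times.

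The make-up of each type also differed among JNK knockout lines. Krt5 made up 85.1%, 85.2%, 81.0% and 75.5% of the type II sum over the 4 members in lines 1 to 4, and 36.8%, 25.5% and 24.8% in lines 5 to 7. Krt6a took the larger share of that sum in lines 5 (49.7%), 6 (69.4%) and 7 (66.5%). In lines 1 to 4 Krt6a was at 13.4% to 22.2%. On the type I side Krt14 was the leading member in every JNK knockout line, with 62.3% to 96.7% of the sum over the 4 members. Krt17 was highest as a share in lines 1 (32.4%) and 2 (28.0%) and lowest in line 6 (1.58%). The ratio of Krt5 to Krt6a was 3.40 to 6.36 in lines 1 to 4 and 0.367 to 0.740 in lines 5 to 7. No label separates lines 1 to 4 from lines 5 to 7, and no test was made between them.

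Within the JNK knockout group each type II member was set against each type I member over the 7 lines, on log2(TPM + 1), in 16 pairs. The p-values are from exact permutation over all pairings and are adjusted over the 16 pairs. By Pearson's r, 4 pairs passed an adjusted p of 0.05, and by Spearman's rho none did (4 pairs had an unadjusted p under 0.05). Of the textbook pairs of activated epidermis, Krt6b with Krt16 passed by Pearson's r and Krt6a with Krt16 did not. For Krt6b with Krt16, the pair of highest r, it was 0.97 (exact p = 0.0014, adjusted p = 0.011) and rho 0.93 (exact p = 0.0067, adjusted p = 0.054), and r was 0.89 without the 2 lines farthest from the median of Krt6b. Krt6a with Krt16 gave r 0.75 (exact p = 0.052, adjusted p = 0.13) and rho 0.64 (adjusted p = 0.32), and 0.42 without the 2 lines farthest from the median of Krt6a. Krt6a with Krt14 gave r 0.92 (exact p = 0.0014, adjusted p = 0.011) and rho 0.89 (adjusted p = 0.066), and 0.88 without the 2 farthest lines. Krt5 with Krt17 gave r 0.90 (exact p = 0.0079, adjusted p = 0.040) and rho 0.93 (adjusted p = 0.054), and 0.70 without the 2 farthest. Krt6a with Krt17 gave r 0.88 (exact p = 0.010, adjusted p = 0.040) and rho 0.86 (adjusted p = 0.095), and 0.75 without them. The textbook basal pair did not pass. For Krt5 with Krt14 r was 0.59 (exact p = 0.16, adjusted p = 0.33) and rho 0.43 (adjusted p = 0.57), and r was 0.18 without JNK knockout lines 1 and 2. Over the 6 WT lines, with Krt5 below 1 TPM in each, Krt5 with Krt17 gave r 0.81 (exact p = 0.015) and rho 0.94 (exact p = 0.017), and 0.97 without the 2 farthest lines. Krt5 with Krt14 there gave r 0.45 (exact p = 0.36) and rho 0.43 (exact p = 0.42), and 0.65 without the 2 farthest lines. The 2 WT pairs were not adjusted.

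Set within all keratins, the 8 members took a share of the keratin transcripts that differed widely among JNK knockout lines. They held 95.3% of all keratin TPM in JNK knockout line 2, 60.3% in line 7, 55.1% in line 1, 43.9% in line 3, 43.7% in line 6, 34.5% in line 5 and 12.1% in line 4. The mean was 49.3% ± 25.6 in JNK knockout lines (SD, n = 7) and 2.49% ± 1.36 in WT lines (SD, n = 6), where the highest share was 4.78%. By read counts the means were 51.9% and 2.61%. Over all keratins the type I to type II ratio was 0.450 to 1.43 in JNK knockout lines (mean 0.963 ± 0.363, SD, n = 7) and 0.829 to 1.29 in WT lines (mean 1.01 ± 0.169, SD, n = 6). Over the members alone it was 1.10 to 8.90 in JNK knockout lines and 141 to 806 in WT lines. All keratins together made up 0.519% to 2.46% of all TPM in JNK knockout lines and 0.528% to 0.766% in WT lines, and the highest value was that of JNK knockout line 2.

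**Figure D4:**
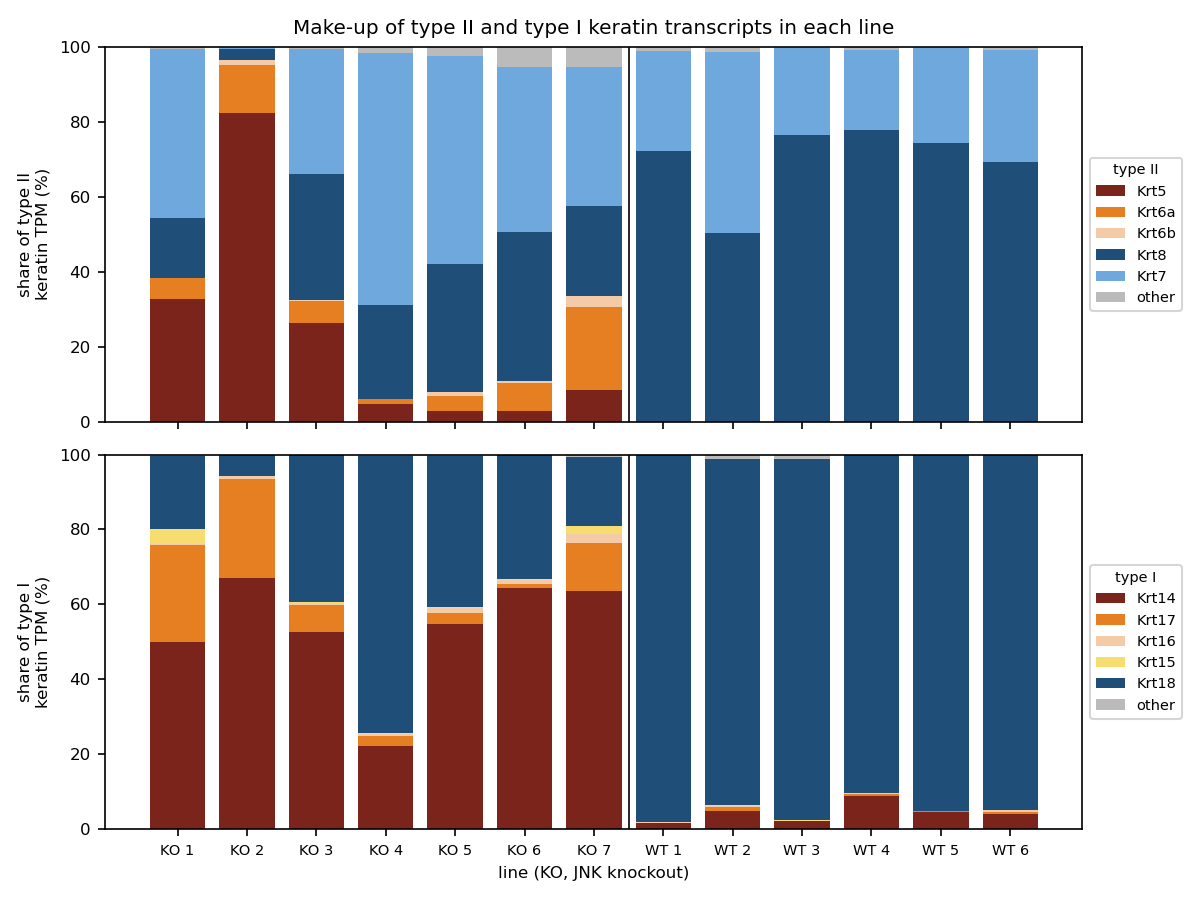
Share (%) of each keratin in the type II keratin TPM (top) and the type I keratin TPM (bottom) of each line, JNK knockout lines left of the vertical line and WT lines right of it. Blue parts (Krt8, Krt7 and Krt18) fill nearly all of the WT bars, while red, orange and yellow parts (the members) range from a small part in JNK knockout line 4 to nearly all in line 2.

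The tables held 44 other keratin genes. After the filter on low counts 12 of them were tested. Over all genes tested edgeR called 4.33% higher and 4.17% lower, and of these 12 keratins 2 rose and 2 fell. Among the 7 type I genes of these 0 rose and 1 fell (median log2 fold change 0.19, with 1 higher at an unadjusted p under 0.05 and 1 rising with DESeq2), and among the 5 type II genes 2 rose and 1 fell (median 1.00). Krt18, the type I keratin of simple epithelium, was at 1080 ± 239 TPM in JNK knockout lines (SD, n = 7) and 3058 ± 546 TPM in WT lines (SD, n = 6). It fell by 1.26 on the log2 scale (SE 0.18, edgeR adjusted p = 0.0026), with 7 of 7 JNK knockout lines below every WT line. The share of all genes with that lower pattern was not computed. Krt8, the partner of Krt18, was at 992 ± 417 TPM in JNK knockout lines and 2275 ± 498 TPM in WT lines. Krt8 fell by 0.97 (SE 0.28, edgeR adjusted p = 0.047). That call held in 3 of 13 fits with 1 line left out (those without JNK knockout line 2, JNK knockout line 3 or WT line 2). Krt7 was at 1606 ± 913 TPM in JNK knockout lines and 943 ± 327 TPM in WT lines and did not pass (adjusted p = 0.33). In JNK knockout line 2 it was at 22.5 TPM, against 1127 to 2858 TPM in the other JNK knockout lines. Krt4, a keratin of non-keratinising stratified epithelium such as the oesophagus, was at 13.6 ± 13.8 TPM in JNK knockout lines and 0.135 ± 0.102 TPM in WT lines (log2 fold change 6.85, SE 1.19, adjusted p = 0.0064). With limma-voom Krt4 was not called (adjusted p = 0.17). JNK knockout line 2 was the exception, with 0.06 TPM. Krt4 had 38 reads in all WT lines, so it passed the filter on low counts only with JNK knockout lines. Krt79, a keratin of the hair follicle canal and sebaceous duct, was at 58.0 ± 62.5 TPM in JNK knockout lines and 2.89 ± 5.01 TPM in WT lines (log2 fold change 4.58, SE 1.18, adjusted p = 0.031). It was 3.93 (adjusted p = 0.061) without JNK knockout line 7 and 6.23 (adjusted p = 0.010) without WT line 2, and it also lost its call without WT line 1, 3, 5 or 6 (adjusted p from 0.051 to 0.060).

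By position, the genes beside the members varied. Krt13, the neighbour of Krt15 on its other side, had too few reads for the test, with 0.18 to 6.18 TPM in JNK knockout lines and 0 to 0.25 TPM in WT lines. Of the 7 JNK knockout lines 6 were above every WT line. Other neighbours stayed near 0 TPM in both groups. In the type II cluster Krt71, which follows Krt5, reached at most 0.1 TPM in any JNK knockout line and 1 TPM in any WT line, and Krt82, which precedes Krt75, reached at most 0.04 TPM in JNK knockout lines and 0 TPM in WT lines. Within the type I run Krt9, between Krt15 and Krt14, reached at most 0.14 TPM in JNK knockout and 0.05 TPM in WT lines. Krt19, a luminal keratin that lies between Krt15 and Krt9, was at 0.2 to 16.6 TPM in JNK knockout lines and 0 to 18.9 TPM in WT lines (adjusted p = 0.95). Krt42, next to Krt17, was at 0.16 to 19.1 TPM in JNK knockout lines and 0.06 to 1.76 TPM in WT lines and did not pass (log2 fold change 3.44, adjusted p = 0.085). Its highest value was again that of JNK knockout line 2. The 4 adjacent type II members differed from each other in level by orders of magnitude in the JNK knockout lines, with medians of 0.72 TPM for Krt75, 13.1 TPM for Krt6b, 312 TPM for Krt6a and 365 TPM for Krt5. At least 1 TPM in at least 1 line was reached by 22 of 52 keratin genes in JNK knockout lines and by 15 of 52 in WT lines.

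**Figure D5:**
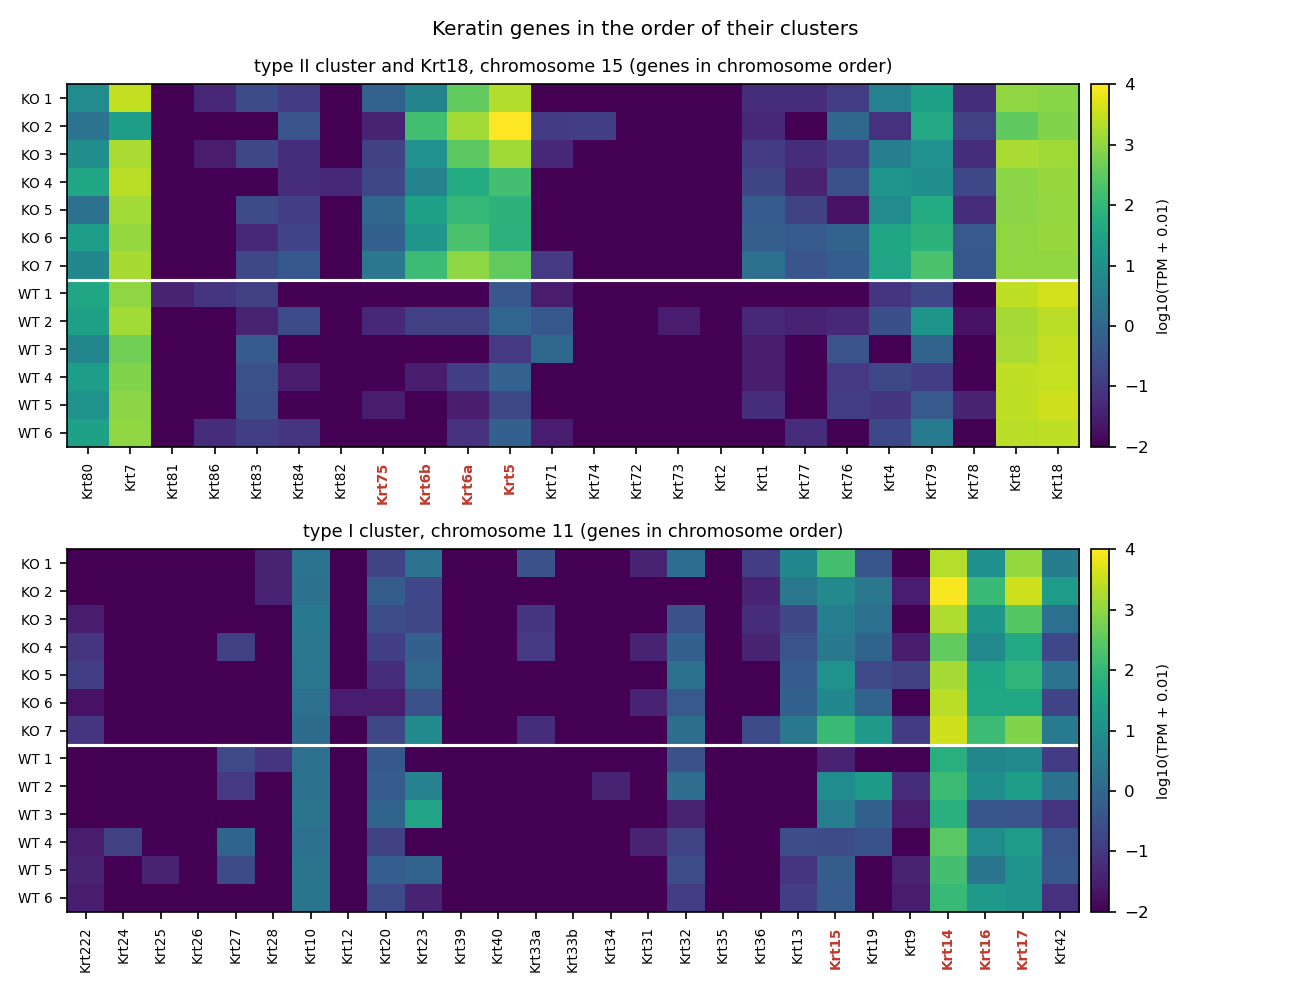
Heat map of log10(TPM + 0.01) for keratin genes in chromosome order, JNK knockout lines above and WT lines below the white line. In the JNK knockout rows Krt5, Krt6a, Krt14 and Krt17 are the brightest members, while Krt75 (median 0.72 TPM) is dim. Other keratin genes of the clusters, such as Krt9, Krt71 and Krt82, are dark or dim in both groups.

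Genes that work with these keratins were read from further lists, counting those past the test in each direction. Over all genes tested edgeR called 4.33% higher and 4.17% lower, and DESeq2 8.7% and 7.52%. With limma-voom 3.39% were called higher. In lists this short a count of 1 or 2 is not read as a result about the list. The share of all genes at an unadjusted p under 0.05 was not computed. Counts at that level, here and for the other keratins, therefore have no background to be read against. Low unadjusted p-values were common: Krt15, at an unadjusted edgeR p of 0.0061, ranked 1312 among the 13058 genes tested. A gene near 0 in 1 group passed the filter on low counts only with lines of the other group. Such a gene could hardly be called in the opposite direction, and how many the lists held was not counted. The keratin anchoring list holds desmosomal plaque and linker proteins to which keratin filaments attach. Of its 12 genes tested, 0 rose and 1 fell, with a median log2 fold change of -0.03. At an unadjusted p under 0.05 in edgeR 2 were higher and 2 lower, and DESeq2 and limma-voom each gave 0 that rose and 1 that fell. The gene that fell was Pkp2, a desmosomal plaque protein of simple epithelium, at 25.6 ± 6.56 TPM in JNK knockout lines and 43.9 ± 6.26 TPM in WT lines (log2 fold change -0.58, edgeR adjusted p = 0.037, called in 4 of 13 fits with 1 line left out). Of 8 basal adhesion genes 2 rose and 0 fell with edgeR (median 0.21), with 1 lower at an unadjusted p under 0.05. DESeq2 gave the same counts of 2 and 0, and limma-voom 0 and 0. Col17a1, the hemidesmosomal collagen that ties the Krt5 and Krt14 network to the basement membrane, had 82190 reads in JNK knockout lines and 48 reads in WT lines. Col17a1 passed the filter on low counts only with JNK knockout lines. Its log2 fold change was 10.66 (adjusted p = 0.0026), and 8.99 (adjusted p = 0.00090) without JNK knockout line 2. Lama3, a chain of the laminin beneath those hemidesmosomes, was at 7.02 ± 6.18 TPM in JNK knockout lines and 0.425 ± 0.348 TPM in WT lines (log2 fold change 4.23, adjusted p = 0.017). With limma-voom neither of these 2 was called (adjusted p = 0.13 and 0.15).

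Of 16 transcription factors of stratified epithelium that were tested, 2 rose and 0 fell with edgeR (median 0.51). Over all genes tested 4.33% were called higher and 4.17% lower. At an unadjusted p under 0.05 in edgeR 8 were higher and 1 lower. With DESeq2 6 rose and 0 fell, and with limma-voom 1 rose and 0 fell. Trp63, whose product p63 is a master regulator of stratified epithelium and activates Krt5 and Krt14 in skin, was at 2.35 to 92.3 TPM in JNK knockout lines and 0.18 to 2.84 TPM in WT lines. Of the 7 JNK knockout lines 6 were above every WT line, and the highest was line 2. Its log2 fold change was 4.55 (SE 0.90, edgeR adjusted p = 0.011), 3.79 (adjusted p = 0.012) without JNK knockout line 2, and not called with limma-voom (adjusted p = 0.072). Grhl3, a factor of barrier formation, was at 10.4 ± 7.22 TPM in JNK knockout lines and 1.52 ± 0.871 TPM in WT lines (log2 fold change 3.02, adjusted p = 0.0052).

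Of 10 wound-activated epidermis genes tested 5 rose and 0 fell with edgeR (median 2.23), where 4.33% of all genes were called higher. At an unadjusted p under 0.05 in edgeR 0 were lower, and 5 rose and 0 fell with DESeq2, against 2 and 0 with limma-voom. Sprr1b, a cornified envelope protein, had 1119 reads in JNK knockout lines and 0 in WT lines. Sprr1b entered the test only through the JNK knockout lines and could be called only as higher. Il1a, a keratinocyte alarm cytokine, was at 28.4 ± 61.2 TPM in JNK knockout lines and 0.280 ± 0.183 TPM in WT lines (log2 fold change 6.84, edgeR adjusted p = 0.016, and 4.45 without JNK knockout line 1, adjusted p = 0.018). Il33, a nuclear alarm cytokine, was at 35.8 ± 40.2 TPM in JNK knockout lines and 3.17 ± 4.13 TPM in WT lines (3.73, adjusted p = 0.021). Its log2 fold change was 3.14 without JNK knockout line 1 and 4.78 without WT line 5. Sprr1a rose with a log2 fold change of 4.40 (adjusted p = 0.037), but was called in 3 of 13 fits with 1 line left out, and it was 6.68 without WT line 3. The fifth was Serpinb2 (adjusted p = 0.047), a protease inhibitor, named after its values were seen. The other genes tested were not called, with log2 fold changes of 0.73 (Gjb2), 0.65 (Plaur), 0.25 (S100a8), -0.25 (Areg) and -0.47 (Hbegf). With limma-voom Il1a (adjusted p = 0.20) and Il33 (adjusted p = 0.066) were not called. Without JNK knockout line 1, 2, 3 or 7 the count was 3 of the list.

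Of 7 suprabasal genes tested 3 rose and 0 fell with edgeR (median 2.83), where 4.33% of all genes were called higher. At an unadjusted p under 0.05 in edgeR 4 were higher and 0 lower, and 4 rose and 0 fell with DESeq2, and 3 and 0 with limma-voom. Sbsn, or suprabasin, was at 66.3 ± 41.5 TPM in JNK knockout lines and 3.48 ± 2.03 TPM in WT lines (log2 fold change 4.30, edgeR adjusted p = 0.0014). Cnfn, a cornified envelope component, had 1242 reads in JNK knockout lines and 0 in WT lines. Cnfn entered the test only through the JNK knockout lines and could be called only as higher. Ivl, or involucrin, was at 3.98 ± 3.62 TPM in JNK knockout lines and 0.243 ± 0.172 TPM in WT lines (log2 fold change 4.23, adjusted p = 0.0079). Krt10, the type I keratin of suprabasal epidermis, was near 2 TPM in both groups, at 1.98 ± 0.469 TPM in JNK knockout and 1.86 ± 0.249 TPM in WT lines (adjusted p = 0.47). Its partner Krt1 reached at most 1.58 TPM in JNK knockout lines and 0.05 TPM in WT lines.

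Of 15 luminal genes tested 0 rose and 3 fell with edgeR (median -0.65), where 4.17% of all genes were called lower. At an unadjusted p under 0.05 in edgeR 0 were higher, and 0 rose with DESeq2 or limma-voom. Those that fell were Krt18 and Krt8, also counted above among the other keratins, and the mucin Muc1. Muc1 was at 0.151 ± 0.0743 TPM in JNK knockout lines and 1.74 ± 1.96 TPM in WT lines (log2 fold change -3.29, edgeR adjusted p = 0.031). Muc1 was not called with limma-voom (adjusted p = 0.20), nor without JNK knockout line 1, 3 or 7 or without WT line 2 or 3, and its fold change was -2.60 (adjusted p = 0.066) without WT line 3. Of 5 myoepithelial genes tested none passed with edgeR (median 2.20). At an unadjusted p under 0.05 in edgeR 2 were higher and 1 lower, 1 rose and 1 fell with DESeq2, and none passed with limma-voom. The 2 of smallest p were Acta2, smooth muscle actin (log2 fold change 5.43, adjusted p = 0.076), and Oxtr, the oxytocin receptor (-3.58, adjusted p = 0.10). Acta2 was 3.05 (adjusted p = 0.16) without JNK knockout line 2, 6.66 (adjusted p = 0.065) without WT line 3, and called without JNK knockout line 6 (5.65, adjusted p = 0.047). Oxtr was -4.39 without JNK knockout line 7 and -2.74 without WT line 3 (adjusted p = 0.087 and 0.21). Of 12 mesenchymal genes 0 rose and 2 fell with edgeR (median -0.88), the collagen chains Col1a2 and Col1a1, with 0 higher at an unadjusted p under 0.05 and 0 rising with DESeq2 or limma-voom. Neither collagen was called with limma-voom (adjusted p = 0.16 for each), and DESeq2 gave neither an adjusted p. Col1a2 had 79 reads in JNK knockout and 6814 in WT lines (log2 fold change -6.72, adjusted p = 0.013, and -3.80 without WT line 3, adjusted p = 0.020). Col1a1 had a log2 fold change of -4.40 (adjusted p = 0.023), and -1.91 (adjusted p = 0.053) without WT line 3. It also lost its call without JNK knockout line 1 or 7.

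Several of the highest keratin values belong to JNK knockout line 2, which differed from the other lines in other genes as well. Vim, the intermediate filament of mesenchymal cells, was at 3774 TPM in that line, against 17.2 to 705 TPM in the other 6 JNK knockout lines and 50.1 to 654 TPM in the WT lines. Acta2 was at 1651 TPM there, against 0.26 to 135 TPM in the other JNK knockout lines and 0.37 to 27.3 TPM in the WT lines. Zeb1, a repressor of epithelial genes, was at 21.5 TPM there, against 0.35 to 3.79 TPM in the other JNK knockout lines and 0.32 to 3.19 TPM in the WT lines. The epithelial cadherin Cdh1 was at 33.1 TPM there, against 122 to 278 TPM in the other JNK knockout lines and 230 to 402 TPM in the WT lines. The line thus held the highest Krt5, Krt14, Krt17, Krt6a and Krt6b together with the highest Vim and Acta2 and the lowest Cdh1 of the 13. Other genes of the mesenchymal list were mixed. Zeb2 (8.65 TPM) and Pdgfra (4.74 TPM) were also highest in line 2. Fn1 (606 TPM), Cdh2 (19.3 TPM), Snai2 (16.9 TPM), Col3a1 (7.8 TPM), Col1a1 (1.14 TPM) and Pdgfrb (0.97 TPM) lay within the WT range. Twist1 (8.4 TPM) and Col1a2 (0.15 TPM) were below every WT line. The part of these genes in the keratin levels of line 2 was not tested. Without that line Krt5, Krt14, Krt17, Krt6a, Krt6b and Krt75 kept their edgeR calls. Krt16 lost its call (log2 fold change 2.68, edgeR adjusted p = 0.071), and Krt15 was again not called. The other 6 JNK knockout lines held 687 ± 839 TPM of Krt5 (SD, n = 6) and 1980 ± 1064 TPM of Krt14.

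The genes whose levels were most like those of the leading members over the 7 JNK knockout lines were read among 1167 variable genes by Pearson's r of log2(TPM + 1). These are descriptions over 7 lines that share the high values of line 2. For Krt5 they were Chst11 (r 0.99), Ntn4 (0.98), Fjx1 (0.98) and Hdgfrp3 (0.98), and none of these 4 was called between the groups. For Krt14 they were Lima1 (0.93), Sh3kbp1 (0.91), Pi15 (0.90) and Palld (0.90). For Krt6a they were Kctd12 (0.99), Palld (0.97), Sh3kbp1 (0.93) and Vwa1 (0.93). For Krt17 they were Rgs10 (0.98), Galnt18 (0.98), Tnfaip2 (0.98) and Ugt1a6b (0.97). Palld and Sh3kbp1 stood in the lists of both Krt14 and Krt6a. Of these genes Kctd12, Rgs10 and Ugt1a6b were called higher in JNK knockout lines (edgeR adjusted p = 0.044, 0.025 and 0.0497).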

How the data were processed

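RNA-seq of 13 lines used total RNA and paired reads of 150 bases, per the labels' protocols. Per the submitters' processing notes, reads were trimmed with cutadapt and quantified with RSEM, with builds mm10 and GRCm38; versions, strand use and annotation release were not stated there. The authors deposited expected counts per gene and TPM for the same genes and lines. TPM values were used for levels and ratios. Expected counts were rounded and tested with edgeR 4.0.16 (R 4.3.3): filterByExpr (13058 genes kept), TMM scaling, the quasi-likelihood F test with group as the only term, and Benjamini-Hochberg adjustment over all genes tested, threshold 0.05. The standard error is the size of the log2 fold change divided by the square root of F. The script was tested on simulated counts. The biological coefficient of variation was 0.548. No libraries agreed within sampling noise (closest pair, WT lines 4 and 6, chi-square 74.6 per gene). Depth was 38298602 to 46689809 expected counts per line. The standard errors come from the edgeR fit and include the spread among lines as well as counting error.

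The members, the gene lists and the tests were chosen with earlier results of these data known, so their direction is not independent evidence. The lists were other type I and type II keratins, keratin anchoring, stratified epithelium transcription factors, basal adhesion, wound-activated epidermis, suprabasal, luminal, myoepithelial and mesenchymal genes, and markers of leukocytes, endothelial cells and adipocytes. From each of the first 10 lists the text names up to 4 called genes of lowest adjusted p, or the 2 of smallest p where none was called, with Krt8, Krt18 and Trp63 always; genes outside this rule were named after their values were seen. Genes like a member are the 4 of highest Pearson r among tested genes whose log2(TPM + 1) had an SD of at least 1 over the JNK knockout lines. Alternatives were other scalings, DESeq2 1.42.0, limma-voom (limma 3.58.1), robust empirical Bayes, limma on log2(TPM + 1) and log2(TPM + 0.1), no filter, CPM above 1 in at least 6 lines, each line left out, WT lines 4 and 5 summed, and Krt6a and Krt6b summed. Positions are from RefSeq on GRCm38. Window sharing and coding identity used GENCODE transcripts.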

Additional observations from a re-analysis of the deposited data

Results flagged for a closer look

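The sets examined, 23 in all, were TPM values of a member, keratin shares or keratin ratios within a group. Of these, 5 held a line that lay far from the others by Dixon's criterion. Its usual rate of about 1 in 20 is for independent sets of normal values. These sets share lines and were not log-transformed, so that rate does not apply here. In JNK knockout line 2, Krt5 (9482 TPM), Krt14 (8728 TPM) and Krt17 (3437 TPM) each stood above the other 6 JNK knockout lines, with a gap to the next line of 0.787, 0.612 and 0.685 of the group's range. Krt75 in JNK knockout line 7 was at 2.36 TPM, with a gap of 0.601 of the range. Krt6b in WT line 2 was at 0.13 TPM, with a gap of 0.846 of the range; it rests on the expected count of 6.5 that RSEM gave equally to Krt6a and Krt6b in that line.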

How the results depend on the processing

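No paired analysis was possible because the labels give no replicate numbers shared between the groups. All 192 fold changes of the 8 keratins that the alternatives gave were positive, but they are refits of the same lines and no added evidence. Krt75 had no value under the CPM filter or in the 6 fits without a JNK knockout line other than line 2. Krt6b had none where it was summed with Krt6a. Calls of Krt14 and Krt6a held throughout. With limma-voom the log2 fold changes of Krt5 (10.53), Krt17 (5.29), Krt6b (10.38) and Krt16 (2.98) missed the threshold. Krt16 also missed it with library size alone (2.92), robust empirical Bayes (3.01), log2(TPM + 1) (2.37), log2(TPM + 0.1) (2.73), no filter (2.99) and WT lines 4 and 5 summed (2.92). Krt75 missed it on log2(TPM + 1) (0.67). Krt15 passed with DESeq2 (4.56) and on log2(TPM + 0.1) (3.95). With 1 line left out the log2 fold change was 10.58 to 12.35 for Krt5, 4.09 to 4.99 for Krt14, 3.75 to 5.65 for Krt15, 5.14 to 6.52 for Krt17, 12.76 to 13.74 for Krt6a, 10.51 to 13.09 for Krt6b, 2.58 to 3.53 for Krt16 and 5.93 to 7.05 for Krt75. The Krt14 to Krt5 log2 ratio differed by -6.74 to -5.88 (-4.32 with 1 TPM added), and the mean share of the members was 41.6% to 55.5% in JNK knockout and 2.03% to 2.79% in WT lines.

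Genes called higher and lower numbered 566 and 545 with edgeR, 1130 and 977 with DESeq2, 286 and 998 on log2(TPM + 1) and 322 and 981 on log2(TPM + 0.1). On the 2 TPM scales the median of all genes lay at -0.19 and -0.23. With 1 line left out the counts were 324 to 649 higher (lowest without JNK knockout line 7, then line 1 with 329, WT line 1 with 374 and JNK knockout line 3 with 375) and 316 to 592 lower (lowest without JNK knockout line 1, then line 7 with 326).

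The medians of the lists moved as follows: type I keratins to -1.06 with DESeq2 and 1.35 with limma-voom, anchoring genes to -0.33 on both TPM scales, wound-activated genes to 3.53 with no filter, 0.74 with the CPM filter and 3.35 with WT lines 4 and 5 summed, suprabasal genes to 1.69 on log2(TPM + 1), 4.22 with no filter and 4.24 with the CPM filter, and myoepithelial genes to 0.54 on log2(TPM + 1). With 1 line left out the medians were -1.03 to 1.52 (type I), 0.82 to 1.22 (type II), -0.12 to 0.08 (anchoring), 0.41 to 0.60 (transcription factors), -0.30 to 0.36 (basal adhesion), 1.80 to 3.48 (wound-activated), 2.02 to 3.70 (suprabasal), -0.98 to -0.21 (luminal), 0.99 to 2.76 (myoepithelial) and -2.24 to -0.43 (mesenchymal).

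Counts of higher calls became 1 for type I keratins (DESeq2, no filter, WT lines summed), 1 (limma-voom, WT lines summed) or 4 (no filter) for type II keratins, 6 (DESeq2) or 1 (limma-voom) for transcription factors, 0 for basal adhesion (limma-voom), 2 (limma-voom) or 3 (log2(TPM + 1)) for wound-activated, 5 for suprabasal (no filter) and 1 for myoepithelial genes (DESeq2). Counts of lower calls became 0 for type II keratins (upper-quartile scaling, no filter, WT lines summed), 2 for anchoring genes (log2(TPM + 1)), 1 for transcription factors and for basal adhesion (both TPM scales), 1 for myoepithelial (DESeq2) and 1 for mesenchymal genes (log2(TPM + 1), CPM filter). With 1 line left out, higher calls were 0 to 2 (type I), 1 to 3 (type II), 2 to 4 (transcription factors), 2 (basal adhesion), 3 to 5 (wound-activated), 3 to 4 (suprabasal), and 0 to 1 (luminal and myoepithelial). Lower calls were 1 (type I), 1 to 4 (luminal), 1 to 3 (mesenchymal) and 0 to 1 (type II, anchoring, transcription factors, basal adhesion). The causes were not tested. Depth limits the WT levels of Krt6a (16 reads), Krt6b (8) and Krt75 (5), and with them the size of those folds.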
